A study of Monodelphis domestica with 25 samples.

Results

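Imprinted genes of eutherian mammals lend their names to 5 features of the count tables, described here in blood cultures from a laboratory marsupial, the gray short-tailed opossum (Monodelphis domestica) of the LSD strain. The features are Phlda2_trans, Cdkn1c_trans, H19_trans, Igf2_trans and Peg10_trans, taken by name from rows whose label ends in _trans, and they are 5 of 22059 features. A further row with that ending, Ins2_trans, was at 0 counts in all 15 time course and all 10 treatment libraries and is not described further. What the ending means is not given in the sources used here.

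The untreated time course held 15 libraries, 3 at each of 0, 12, 24, 48 and 72 h in culture, and the identifiers A0036, A0039 and A3538 recur at every time. In the treatment experiment there were 2 controls at 12 h and 2 at 24 h, 4 libraries with perfluorooctanoic acid (PFOA; 400 and 800 µM, each with 1 library at 12 h and 1 at 24 h) and 2 libraries with GenX, a perfluorinated ether acid used as its ammonium salt (1200 µM, 12 h). These concentrations are the smaller or larger one that the protocol lists for the words low and high in the titles. The protocol puts 0.1% dimethyl sulfoxide into treated and control cultures alike, although the controls are labelled untreated. The design text counts 14 time course libraries where the labels give 15. Pilot blood was diluted at more than one strength, which the labels do not tie to libraries. Every treatment library bears the identifier A9394 with a number from R1 to R4, and no label says whether identifiers or numbers stand for animals, so p-values measure the spread between these cultures and that spread may be technical. Since the files pair almost no transcript with a gene name, the label whole blood could not be checked against cell type markers.

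Genomic imprinting is the silencing of a gene's copy from one parent, so that mainly the copy from the other parent is read. It occurs in eutherian and marsupial mammals, and the set of imprinted genes differs between them. Imprinted genes are best known for fetal and placental growth: PHLDA2, CDKN1C and the noncoding RNA H19 restrain it, while IGF2 and PEG10 promote it. The counts do not separate the parental copies, so they show the level of a feature and not its imprinting. Among the protein-coding entries of a RefSeq gene table (assembly mMonDom1.pri), 2 of the 5 symbols were found. Of these entries, the nearest to PHLDA2 were SLC22A18 and NAP1L4, and those nearest to PEG10 were PPP1R9A and SGCE. A noncoding gene such as H19 could not be found in this search.

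Depth set what could be seen of the 5 features. Library totals were 51349217 to 336472834 counts in the time course and 366269 to 11685427 in the treatment experiment. The floor, taken as 3 counts in a library, was therefore 0.0169 to 0.0689 CPM (counts scaled to library size with TMM factors, which correct for a few abundant transcripts taking up much of a library) in the former and 0.239 to 9.52 CPM in the latter. Phlda2_trans and H19_trans reached at least 10 counts in 15 of 15 time course libraries, Cdkn1c_trans and Peg10_trans in 12 and Igf2_trans in 5. In the treatment experiment Phlda2_trans reached 10 counts in 8 of 10 libraries and Cdkn1c_trans in 5, and H19_trans, Igf2_trans and Peg10_trans in 0. The files do not give the features' lengths, so their levels are compared between libraries and not with each other. Of 71 nonzero counts of the 5 features in the time course, 65 (91.5%) were even, and 20 of 31 (64.5%) in the treatment experiment. Among all features, 71.0% and 70.9% of the values from 1 to 12 were even, while the counts of the 5 features were of any size. In the time course 15 of 15 nonzero counts of H19_trans were even, 14 of 14 of Peg10_trans and 12 of 12 of Igf2_trans. For Cdkn1c_trans it was 13 of 15, and for Phlda2_trans, with counts up to 3189, 11 of 15. No source used here says whether a count stands for a read or a pair, and intervals from counting error may be too narrow. Blood is a mixture, and fewer cells of a type cannot be told apart here from less RNA per cell.

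Phlda2_trans, named after a small lipid-binding protein that restrains placental growth, was the one feature of the 5 that passed the test, falling by 48 h and rising again by 72 h. At 0 h it was at 13.2, 14.1 and 9.05 CPM in A0036, A0039 and A3538. At 12 h it was at 13.0, 5.46 and 19.9 CPM, and at 24 h at 4.73, 1.49 and 4.53 CPM. The 12 h libraries thus lay to both sides of fresh blood, and every 24 h library lay below every 0 and 12 h library. How many of all features separate 3 from 3 libraries in this way was not counted. Such separation is a description here and below. At 48 h the values were 2.99, 0.271 and 2.12 CPM, all below fresh blood, and at 72 h they were 7.27, 26.5 and 6.96 CPM, all above 48 h and again to both sides of fresh blood.

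From 0 to 48 h Phlda2_trans fell by 2.75 on the log2 scale (SE 0.781, 95% interval -4.43 to -1.07, n = 3 per time), with an adjusted p of 0.0176 in edgeR's quasi-likelihood F test over 15524 features. It was lower at 48 h in 3 of 3 identifiers, by 4.42-fold in A0036, 51.8-fold in A0039 and 4.28-fold in A3538. It was 1 of 5 features called at that time, where 29.7% of all features tested were called and 13.9% were called lower. The fall passed in all 12 alternative analyses, with adjusted p from 0.000721 to 0.0472.

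From 48 to 72 h Phlda2_trans rose by 2.92 on the log2 scale (SE 0.786, interval 1.23 to 4.60; edgeR, adjusted p = 0.0316), again the only one of the 5 to be called, beside 10.7% of all features called and 4.09% called higher. The rise was 2.43-fold in A0036, 97.7-fold in A0039 and 3.29-fold in A3538. A0039 had the lowest value of the 3 at 12, 24 and 48 h and the highest at 72 h. Leaving out A0039 at 72 h ended the call (log2 fold change 1.98, edgeR adjusted p = 0.145). So did leaving out A0039 at 48 h (2.40, adjusted p = 0.0688) or A3538 at 48 h (3.04, adjusted p = 0.0892), or fitting just the 48 and 72 h libraries (2.95, adjusted p = 0.136).

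Between the other pairs of times Phlda2_trans did not pass. Its log2 fold change from 0 to 12 h was 0.0789 (interval -1.49 to 1.64; edgeR, adjusted p = 0.971), and from 0 to 72 h 0.16 (-1.40 to 1.73; 0.870). From 12 to 24 h it was -1.84 (-3.45 to -0.22, adjusted p = 0.580), where the groups did not overlap and 0.206% of all features were called. From 0 to 24 h it was -1.76 (-3.37 to -0.14, adjusted p = 0.140), with 13.2% of features called, and this difference passed when just the 0 and 24 h libraries were fitted (-1.77, adjusted p = 0.0418). From 24 to 48 h it was -0.99 (-2.59 to 0.60, adjusted p = 0.552), lower in 3 of 3 identifiers, with 0.0515% of features called. Across the 15 libraries the level of Phlda2_trans spanned 97.7-fold, from the 48 to the 72 h library of A0039.

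**Figure D1:**
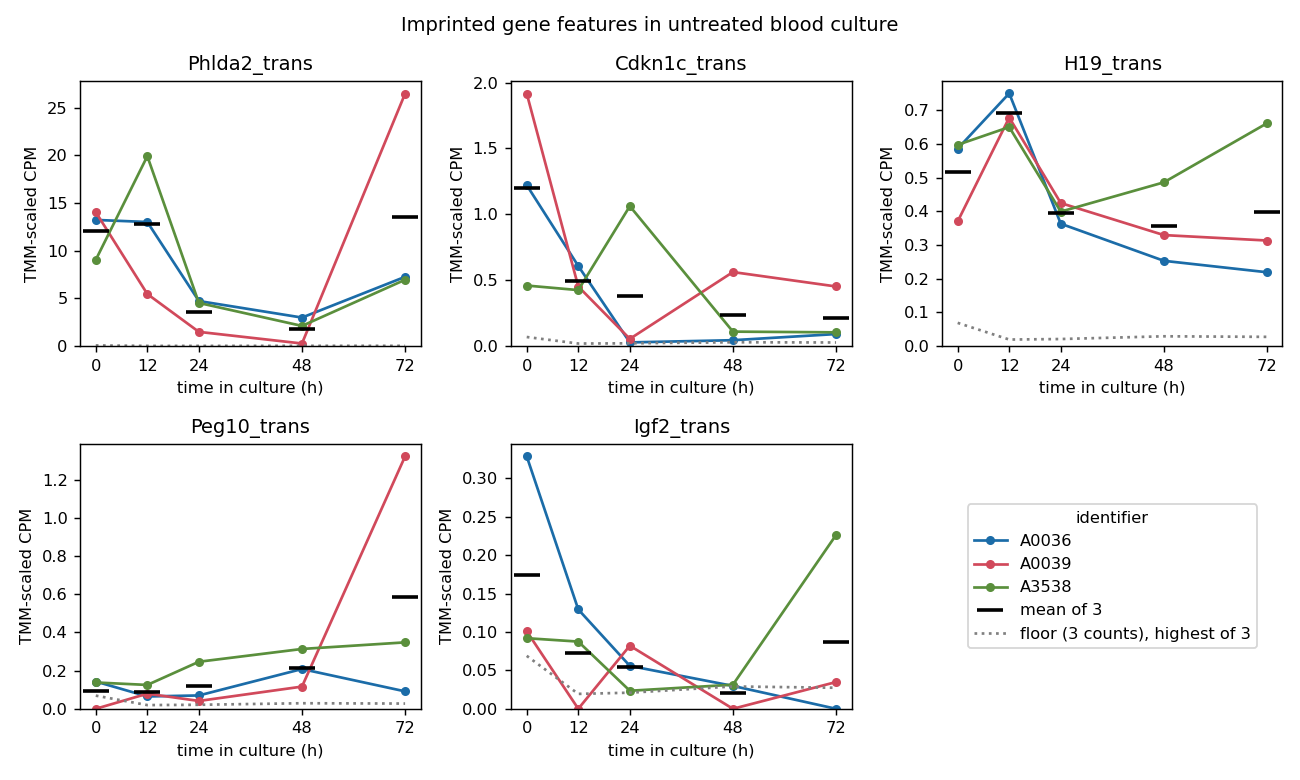
TMM-scaled CPM (y axis, a scale of its own in each panel) against hours in culture (x axis) for the 5 features, with a line for each identifier, black bars for the mean of 3 libraries and a dotted line for the highest floor of 3 counts at that time. Phlda2_trans is lowest at 48 h in all 3 identifiers, and the 72 h library of A0039 holds the highest value of both Phlda2_trans (26.5 CPM) and Peg10_trans (1.32 CPM).

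A pair of transcripts followed the time course of Phlda2_trans most closely. Over the 15 libraries and 15524 features, the Pearson correlation of log2 CPM was highest for ENSMODT00000016046 (r = 0.901, Spearman's rho = 0.900) and ENSMODT00000023807 (r = 0.893, rho = 0.871). ENSMODT00000016046 was at 0.329 CPM in the 48 h library of A0039 and at 2.54 CPM in its 72 h library, and ENSMODT00000023807 at 0.136 and 2.04 CPM, which are the lowest and highest values of each. These are the largest of many correlations and are given as a description. The points share 3 identifiers and their scaling, so they are not independent.

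Cdkn1c_trans, named after a cell cycle inhibitor (p57) that blocks cyclin-dependent kinases, was highest in fresh blood in A0036 and A0039 and did not pass the test at any time. At 0 h it was at 1.22, 1.92 and 0.459 CPM in A0036, A0039 and A3538, and at 12 h at 0.608, 0.452 and 0.425 CPM. All 3 identifiers were lower at 12 than at 0 h, although the groups overlapped. At 24 h it was at 0.0279, 0.0548 and 1.06 CPM, so 2 libraries, with 4 and 8 counts, were near the floor while A3538 had its highest value. At 48 h it was at 0.0446, 0.562 and 0.110 CPM, and at 72 h at 0.0913, 0.452 and 0.104 CPM. All 72 h values lay below all 0 h values, the highest at 72 h (0.452 CPM) and the lowest at 0 h (0.459 CPM) being almost equal. With library totals alone these groups overlapped, with 0.486 CPM in A0039 at 72 h and 0.229 CPM in A3538 at 0 h.

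The fitted log2 fold changes of Cdkn1c_trans from 0 h were -1.28 at 12 h (interval -3.76 to 1.20), -1.65 at 24 h (-4.16 to 0.86), -2.34 at 48 h (-4.93 to 0.25) and -2.47 at 72 h (-5.07 to 0.13). The adjusted p-values of edgeR's F test were 0.538, 0.380, 0.158 and 0.105, so none was called, and each interval includes no change. At 24 h A3538 decided the value: without that library the log2 fold change was -4.82 with an adjusted p of 0.0262.

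H19_trans, named after a noncoding RNA that is spliced and polyadenylated and lies beside IGF2 in mammals, had the narrowest range of the 5. It was at 0.586, 0.370 and 0.597 CPM in the 0 h libraries of A0036, A0039 and A3538. The 12 h libraries had 0.750, 0.678 and 0.650 CPM and the 24 h libraries 0.363, 0.424 and 0.399 CPM. With TMM scaling the 12 h libraries lay above all 0 h and all 24 h libraries, a separation whose share among all features was not counted. With library totals alone both pairs of times overlapped. The 12 h library of A3538, then at 0.309 CPM, lay below the 0 h library of A0039 (0.428 CPM) and every 24 h library (lowest 0.348 CPM). At 48 h H19_trans was at 0.253, 0.329 and 0.486 TMM-scaled CPM, and at 72 h at 0.219, 0.313 and 0.661 CPM, with A3538 the highest at both times. The lowest and highest of its 15 values differed by 3.42-fold.

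For H19_trans the log2 fold change from 0 to 12 h was 0.42 (interval -0.57 to 1.40; edgeR, adjusted p = 0.623), with 7.67% of all features called, and that from 12 to 24 h was -0.81 (-1.79 to 0.18, adjusted p = 0.843). From 0 h it was -0.39 at 24 h (-1.38 to 0.60), -0.54 at 48 h (-1.54 to 0.46) and -0.38 at 72 h (-1.37 to 0.61), with adjusted p of 0.622, 0.402 and 0.518. With library totals alone in place of TMM factors these last 3 values were 0.37, 0.56 and 0.61, but that scaling moved the median of all features to 0.63, 0.97 and 0.86 on the log2 scale, so H19_trans lay below the median feature under it too.

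Igf2_trans, named after a fetal growth factor, was at the edge of detection. Its counts at 0 h were 46, 6 and 4 in A0036, A0039 and A3538, or 0.329, 0.101 and 0.0919 CPM. They were 20, 0 and 14 at 12 h, 8, 12 and 4 at 24 h (0.0559, 0.0821 and 0.0235 CPM), 4, 0 and 4 at 48 h, and 0, 4 and 26 at 72 h. The 152 counts of all 15 libraries were therefore few and unevenly placed, with 46 in the 0 h library of A0036 and 26 in the 72 h library of A3538. All 24 and 48 h values in TMM-scaled CPM lay below all 0 h values, a separation whose share among all features was not counted. The exact Poisson intervals of A3538 at 0 h (0.0250 to 0.235 CPM) and A0039 at 24 h (0.0424 to 0.143 CPM) overlap. With library totals alone the 0 and 24 h groups overlapped, with 0.119 CPM in A0039 at 24 h and 0.0457 CPM in A3538 at 0 h. The highest 48 h value was then 0.0450 CPM in A3538, almost equal to its 0 h value. In edgeR's test the log2 fold changes from 0 h were -1.31 at 12 h, -1.73 at 24 h, -3.04 at 48 h (interval -6.21 to 0.14) and -1.03 at 72 h (-3.90 to 1.83), with adjusted p of 0.590, 0.432, 0.136 and 0.541, and that at 72 h was 0.0634 with library totals alone.

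Peg10_trans, named after a gene derived from a retrotransposon that is needed to form the eutherian placenta, was highest at 72 h in A0039 and A3538. Its counts at 0 h were 20, 0 and 6 in A0036, A0039 and A3538 (0.143, 0 and 0.138 CPM), and the 0 in A0039 allows up to 0.0504 CPM. At 12 h its levels were 0.0646, 0.0791 and 0.125 CPM, and 24 h gave 0.0698, 0.0411 and 0.246 CPM. At 48 h it was at 0.208, 0.116 and 0.313 CPM, higher than at 0 h in 3 of 3 identifiers. At 72 h it was at 0.0913, 1.32 and 0.348 CPM, so that A0036 was below its 0 h value and A0039 was far above every other library.

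From 0 to 72 h the log2 fold change of Peg10_trans was 2.61 (SE 1.098, interval 0.26 to 4.97), which did not pass in edgeR's test (adjusted p = 0.0620), beside 49.3% of all features called at that time. DESeq2 called it (2.72, adjusted p = 0.0200), as did edgeR with library totals alone (3.68, 0.00894) and without the 72 h library of A0036 (3.11, 0.0308). Without the 72 h library of A0039, with 152 of the 410 counts, it was 1.20 with an adjusted p of 0.391. From 0 to 48 h the log2 fold change was 1.16 (-1.15 to 3.46, adjusted p = 0.438), and from 48 to 72 h 1.46 (-0.74 to 3.65, adjusted p = 0.384).

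In all, 2 of the 35 tests of the 5 features over the 7 time comparisons passed, both of them for Phlda2_trans. In the other 5 comparisons edgeR called 0 of 5. The features with an unadjusted p under 0.05 there were Phlda2_trans at 24 against 0 h and 24 against 12 h and Peg10_trans at 72 against 0 h. Of all 15524 features, 4479, 1107 and 8726 had an unadjusted p under 0.05 in these comparisons. DESeq2 called 1 of 5 at 72 against 0 h, beside 8311 of 15524 features. It called 0 of 5 in the other 4, beside 254 (24 against 12 h) to 3080 (24 against 0 h) of all features. At 72 h, where 49.3% of all features differed from fresh blood, 0 of 5 passed. The median absolute log2 fold change of all features was 0.92 there and those of the 5 were 0.16 to 2.61 in size, so missing the test at these counts does not show that a feature held its level. Among the 4 other tested rows with a name in place of an identifier, 3 were called at 72 h and 1 at 48 h.

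**Figure D2:**
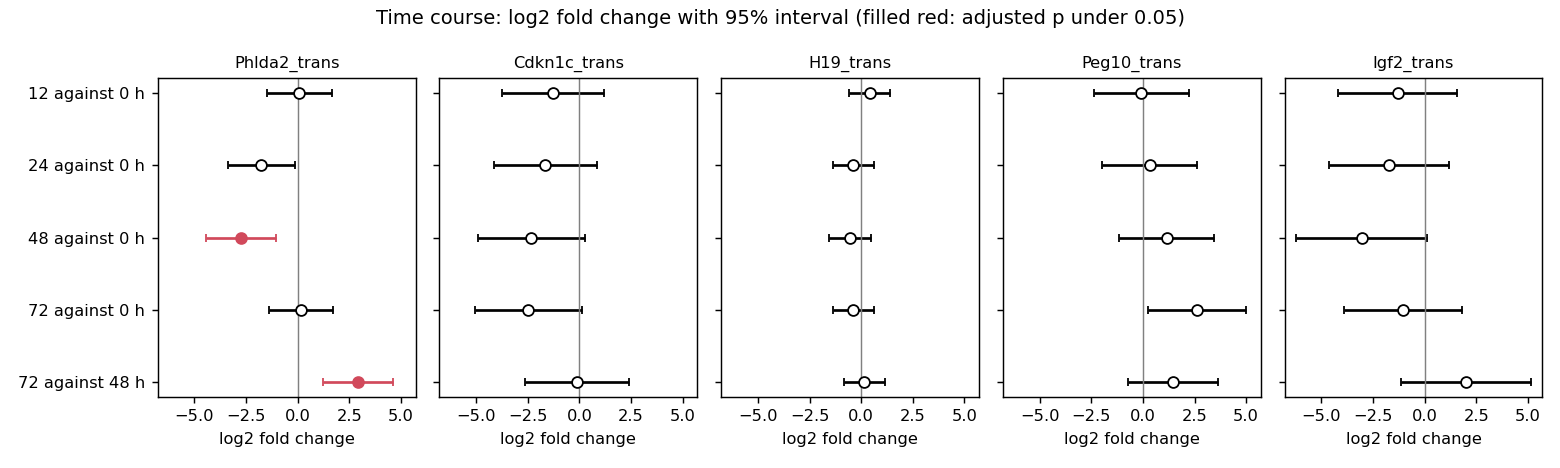
Log2 fold change (x axis) with its 95% interval for each of the 5 features (panels) in 5 comparisons of culture times (y axis), 3 libraries per time, from edgeR's quasi-likelihood fit. The filled points are Phlda2_trans at 48 against 0 h (-2.75) and at 72 against 48 h (2.92), and the intervals of H19_trans are the shortest.

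In the treatment experiment 2 of the 5 features, Phlda2_trans and Cdkn1c_trans, had enough counts to be tested, and neither passed in any of the 5 comparisons (10 tests, lowest adjusted p = 0.232, edgeR). The other 3 were kept out by the filter on low counts. The control libraries show how far depth limits them. At the mean time course level of the same hour, the 4 controls would hold 0.263 to 0.907 counts of Igf2_trans and 0.583 to 1.12 counts of Peg10_trans, and they held 0, 0, 0 and 2 and 0, 0, 0 and 1. H19_trans was predicted at 6.14, 8.70, 1.94 and 2.18 counts in the 12 h controls R1 and R2 and the 24 h controls R2 and R3, and was at 8, 6, 3 and 8. The tables were scaled separately, so levels set side by side across the experiments carry no test.

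Cdkn1c_trans and Phlda2_trans were further from that prediction at 24 h. Cdkn1c_trans held 18 and 16 counts in the 12 h controls R1 and R2, where 4.39 and 6.21 were predicted, and 21 and 26 in the 24 h controls R2 and R3, where fewer than 3 were predicted in each. Phlda2_trans held 128 and 79 counts at 12 h (predicted 114 and 161) and 44 and 63 at 24 h (predicted 17.5 and 19.8). Phlda2_trans was thus lower at 24 than at 12 h in every identifier of the time course, while the 24 h controls, at 8.99 and 11.4 CPM, lay between the 12 h controls, at 14.4 and 6.29 CPM. The experiments differ in identifier and depth, and may differ in the dimethyl sulfoxide given to controls and in the dilution of the blood. The part of any of these in the difference was not tested.

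**Figure D3:**
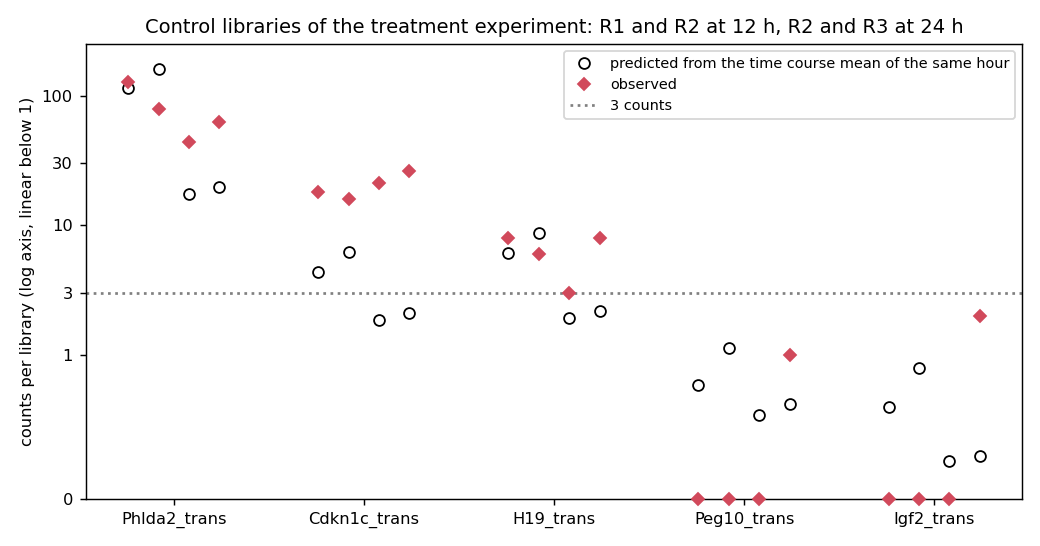
Counts per library (y axis, logarithmic above 1 and linear below) of the 5 features in the 4 control libraries of the treatment experiment, predicted from the time course mean of the same hour (open circles) and observed (diamonds), in the order R1 and R2 at 12 h, R2 and R3 at 24 h. All predictions for Igf2_trans and Peg10_trans lie under the dotted line of 3 counts, and the observed counts of Cdkn1c_trans (16 to 26) lie above all of their predictions (1.87 to 6.21).

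Phlda2_trans was higher than in every control in both libraries at 800 µM PFOA and in both GenX libraries. The 4 controls were at 14.4 and 6.29 CPM (12 h, R1 and R2) and 8.99 and 11.4 CPM (24 h, R2 and R3). At 400 µM PFOA it was at 11.1 CPM at 12 h and 7.50 CPM at 24 h, within the range of the controls. At 800 µM PFOA it was at 34.4 CPM at 12 h and 25.4 CPM at 24 h, and with 1200 µM GenX at 24.4 and 38.6 CPM in R3 and R4. These last 4 libraries were set beside each other after their values were seen, so no test of them as a group is given.

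None of these differences passed the test over 12565 features. For PFOA against control the log2 fold change of Phlda2_trans was 0.86 (SE 0.465, interval -0.13 to 1.85; edgeR, adjusted p = 0.376), where 0.0796% of all features were called. For GenX against control it was 1.48 (SE 0.549, interval 0.31 to 2.65, unadjusted p = 0.0166, adjusted p = 0.558), where 0.00796% were called. For 800 against 400 µM PFOA it was 1.67 (SE 0.553, interval 0.50 to 2.84, unadjusted p = 0.00815, adjusted p = 0.488), where 0.0159% were called. Phlda2_trans was the 1 tested feature of 2 with an unadjusted p under 0.05 in the GenX and dose comparisons, beside 857 and 895 of all 12565 features. There were 0 of 2 in the other 3 comparisons. These had 1972 such features for PFOA against control, 338 for PFOA against GenX and 3494 for 24 against 12 h. DESeq2 called 0 of 2 in all 5, beside 10 (PFOA against GenX) to 2647 (24 against 12 h) of all features.

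The ratio of 800 to 400 µM was 3.10 at 12 h and 3.38 at 24 h, but the 24 h pair rests on 8 and 6 counts. Their exact 95% Poisson intervals, which cover counting error only, were 11.0 to 50.0 and 2.75 to 16.3 CPM and overlap. At 12 h, with 79 and 46 counts, they were 27.2 to 42.9 and 8.12 to 14.8 CPM. With no replicate of a dose and time, the fit takes its error from the whole experiment. The 24 h PFOA libraries were also the smallest, with totals of 366269 counts at 800 µM and 754708 at 400 µM, and the part of library size in this difference was not tested.

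Between the compounds, whose concentrations differed, Phlda2_trans did not pass (PFOA minus GenX -0.61 on the log2 scale, interval -1.76 to 0.53; edgeR, adjusted p = 0.999; 0.0239% of features called). At 12 h it was at 11.1 and 34.4 CPM with 400 and 800 µM PFOA and at 24.4 and 38.6 CPM with 1200 µM GenX. PFOA was given to R1 and R2 and GenX to R3 and R4, so the numbers are linked only through the controls R1, R2 and R3. A replicate block for the number turned the difference to 0.36 with a wide interval (-2.33 to 3.06; edgeR, adjusted p = 1). From 12 to 24 h over all groups the log2 fold change was -0.26 (interval -1.24 to 0.72, adjusted p = 0.761), where 10% of features were called.

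Cdkn1c_trans was at 2.03 and 1.27 CPM in the 12 h controls R1 and R2 and at 4.29 and 4.71 CPM in the 24 h controls R2 and R3. The 24 h controls were the higher pair. At 400 µM PFOA it was at 0.964 CPM at 12 h (4 counts) and 7.50 CPM at 24 h (6 counts). At 800 µM PFOA it had 0 counts at 12 h and 0 at 24 h, which allow up to 1.31 and 9.52 CPM, where the control means of the same time predict 3.79 and 1.42 counts. At 12 h this upper limit, the floor of the library, was below the control mean of 1.65 CPM and control R1 but not below control R2. The exact Poisson upper limit of that 0 was 1.61 CPM, almost equal to the control mean. The Poisson intervals of controls R1 and R2 reach below it, from 1.20 and 0.728 CPM, so a loss was not shown at 12 h. At 24 h the floor was above both controls, so a loss was not detectable there.

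The GenX libraries differed from each other in Cdkn1c_trans, with 24 counts in R3 (3.73 CPM) and 0 in R4, which allows up to 0.911 CPM and where the 12 h control mean predicts 5.44 counts. R3 was above both 12 h controls and R4 below both. The log2 fold change was 0.53 for GenX against control (interval -2.09 to 3.15; edgeR, adjusted p = 0.997), -0.72 for PFOA against control (-3.02 to 1.57, adjusted p = 0.783), -1.25 for PFOA against GenX (-4.21 to 1.70, adjusted p = 0.999) and 2.01 for 24 against 12 h (-0.25 to 4.26, adjusted p = 0.232). For 800 against 400 µM PFOA the test gave an adjusted p of 0.711 (unadjusted p = 0.0758). No fold is given, since both libraries at 800 µM were at 0 and the 400 µM values lay below their upper limits at the same hour. The direction of the GenX difference rested on R3: without it the log2 fold change was -5.73 (adjusted p = 0.529), a fitted value against a library at 0 that is no measure of size. Within PFOA, time and number cannot be told apart either, since R2 was used at 12 h and R1 at 24 h.

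H19_trans held 8 and 6 counts in the 12 h controls, 3 and 8 in the 24 h controls, and 9 and 5 in the GenX libraries R3 and R4, or 0.478 to 1.45 CPM in controls and 1.40 and 1.52 CPM with GenX. In the PFOA libraries it held 2 counts at 400 µM and 12 h, 0 at 400 µM and 24 h, 2 at 800 µM and 12 h, and 3 at 800 µM and 24 h. The last equals 9.52 CPM, the floor of that library, where the 24 h control mean predicts 0.325 counts. Its exact Poisson interval of 1.96 to 27.8 CPM lay above the level of every control. That interval overlapped the one of the 24 h control R3 (0.626 to 2.86 CPM) and lay above those of the other controls. The value comes from 1 library with 3 counts and was not tested. Igf2_trans was at 4 counts in GenX library R3, at 2 in the 24 h library at 400 µM PFOA and at 2 in the 24 h control R3, and at 0 in the other 7. Peg10_trans was at 2 counts in the 12 h library at 800 µM PFOA, at 1 in the 24 h control R3, and at 0 in the other 8. At this depth Igf2_trans and Peg10_trans show no difference between treatments that could be detected.

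**Figure D4:**
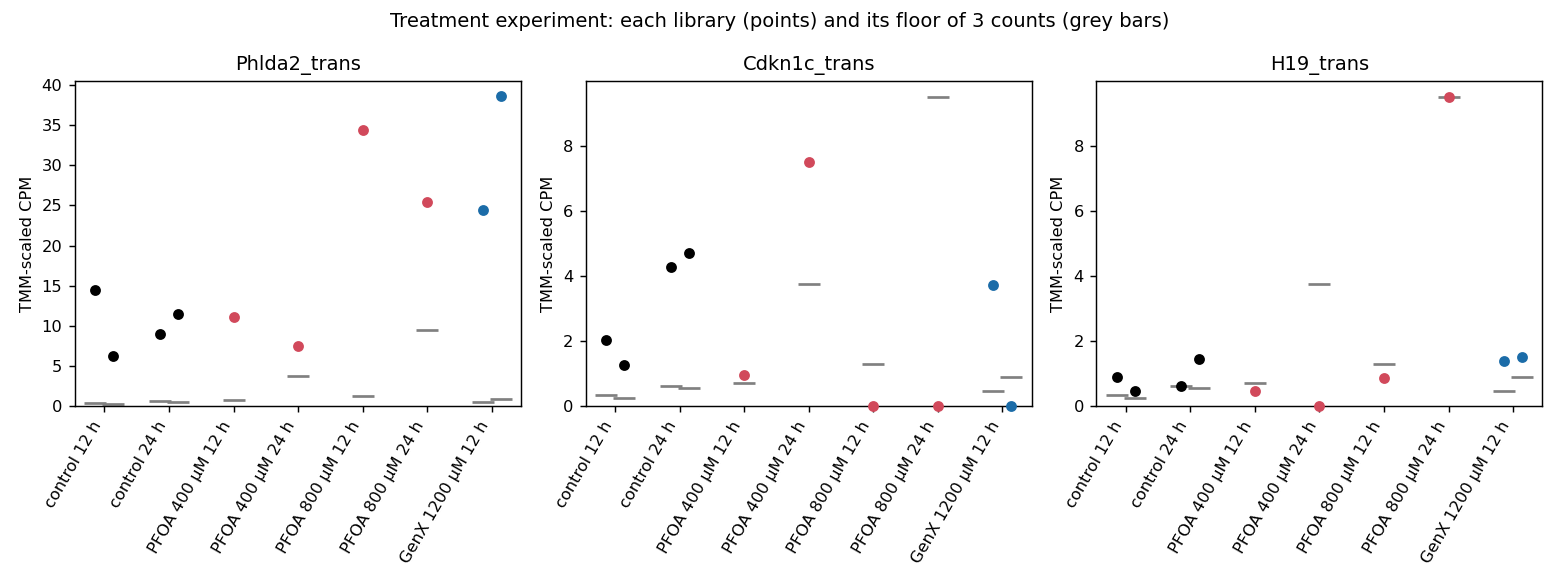
TMM-scaled CPM (y axis) of Phlda2_trans, Cdkn1c_trans and H19_trans in each library (points) of the treatment groups (x axis), with a grey bar at that library's floor of 3 counts. Phlda2_trans at 800 µM PFOA and with GenX (24.4 to 38.6 CPM) lies above all controls (6.29 to 14.4 CPM), and the highest H19_trans value, 9.52 CPM, sits on its floor. The Phlda2_trans value at 800 µM PFOA and 24 h, 25.4 CPM, rests on 8 counts.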

How the data were processed

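Poly(A) RNA of cultured opossum blood was sequenced with a strand-keeping kit, and each experiment has a deposited table of whole-number counts by transcript, to which no normalization had been applied. Among the tools in the submitters' processing notes are TopHat2 2.1.1 and Bowtie2, Trimmomatic 0.36, bedtools 2.30.0 and edgeR, with R 4.1.2. No source used here gives the genome build, the annotation or the use of strand in counting, so reads from overlapping or antisense transcripts or near-identical copies could be shared. Of 22063 rows per table, 4 upper-case copies with identical counts were dropped, and no 2 libraries were identical.

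Features were tested with edgeR 4.0.16 (quasi-likelihood F test, TMM factors, filterByExpr with a minimum count of 10, R 4.3.3) and called at a Benjamini-Hochberg adjusted p under 0.05 over all features tested. The time course was 1 model of 15 libraries with time as a factor. The treatment experiment was 1 model of 10 libraries with treatment (control, PFOA, GenX) and time, filtered on treatment, and the dose comparison added a dose term. DESeq2 1.42.0 was an alternative. The code was tested on simulated data. CPM is the count divided by the TMM-scaled library size. Floors and Poisson intervals cover counting error only. The rule for named features was all 5 members, plus the 2 identifiers most correlated with Phlda2_trans. The members, lists and tests were chosen with earlier results of these data known. The main fit did not treat the identifiers as pairs, and a replicate block was an alternative. Deviations from the mean of each time correlated over 0.1 in 22 of 30 pairs of libraries with the same identifier. With different identifiers they did so in 3 of 60 pairs (medians 0.201 and -0.0994). Libraries with the same identifier were thus more alike, which the main fit leaves out. No gene name could be matched to an identifier (0 matches in the reference table), so no other imprinted gene was described, and no sequence of the 5 features was used here.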

Additional observations from a re-analysis of the deposited data

Results flagged for a closer look

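The 24 h library at 400 µM PFOA had 7.50 CPM of Cdkn1c_trans, while the other 3 PFOA libraries were listed at 0.964, 0 and 0 CPM. The gap was 0.871 of the range of the 4 libraries, beyond the 95% limit of Dixon's test for 4 values. One of the zeros, at 800 µM and 24 h, has a floor of 9.52 CPM and an exact 95% Poisson upper limit of 11.7 CPM. So 7.50 CPM is not shown to be above that library, and the gap takes that 0 as measured. The value rests on 6 counts (exact Poisson interval 2.75 to 16.3 CPM), and the 4 libraries differ in dose and time. Chance marks about 1 in 20 groups, and 4 groups were examined.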

How the results depend on the processing

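Over 12 comparisons, the number of the 5 features called was unchanged in 142 of 151 alternatives and in every alternative for 9 comparisons. All treatment comparisons are among these 9, and the main fit tested 2 of the 5 features there. So are 24 against 12 h and 48 against 24 h of the time course, with 0.206% and 0.0515% of all features called. An unchanged 0 in such comparisons says little about stability. For 24 against 0 h it was 1 in place of 0 in a model of the 2 times alone, and 0 to 1 when a library was left out. For 72 against 0 h it was 1 in place of 0 with library totals alone and 1 with DESeq2, and 0 to 1 when a library was left out. For 72 against 48 h it was 0 in place of 1 in a model of the 2 times alone, and 0 to 1 when a library was left out. Of the 35 time course and 10 treatment tests, 32 log2 fold changes were chosen to be followed through the alternatives. Of their 398 alternative values, 374 kept direction and side of the threshold, 5 newly passed, 4 no longer passed and 15 changed sign. The tally does not cover the tests left out. Among those, Cdkn1c_trans spanned -2.30 to 2.52 for 48 against 24 h and -1.26 to 1.47 for 72 against 48 h. Igf2_trans for 48 against 24 h stayed negative (-1.84 to -0.792).

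Library totals alone turned H19_trans at 24, 48 and 72 against 0 h to 0.37, 0.56 and 0.61, Igf2_trans at 72 against 0 h to 0.0634 and Phlda2_trans at 12 against 0 h to -0.0707. That scaling moved the median of all features at 12, 24, 48 and 72 against 0 h to 0.21, 0.63, 0.97 and 0.86, above each of these values. The replicate block turned Phlda2_trans at 12 against 0 h to -0.0406 and for PFOA against GenX to 0.36, and it changed no call. By their mean correlation, 14 of 15 time course libraries were closest to their own identifier. Leaving out 1 library gave -0.33 to 0.44 for Phlda2_trans at 12 against 0 h, -0.77 to 0.47 at 72 against 0 h and -0.57 to 0.10 for 24 against 12 h in the treatment experiment, and -5.73 to 1.42 for Cdkn1c_trans with GenX against control and -2.16 to 5.00 for PFOA against GenX. Where a GenX library was left out, the lone one is assumed to vary like the other groups. With 10 counts in place of 3 as detected, Igf2_trans was found in 5 in place of 12 time course libraries and in 0 in place of 1 treatment library, and H19_trans in 0 in place of 7 treatment libraries. Filtering on 7 groups of treatment, dose and time, chosen after the data were seen, let H19_trans be tested, and it was not called.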
